A study of Homo sapiens with 42 samples.

Results

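Autophagy delivers cytoplasmic material to the lysosome inside a double membrane. A kinase complex built on ULK1 starts the process, and a lipid kinase complex built on PIK3C3 and BECN1 marks the site with phosphatidylinositol 3-phosphate. WIPI proteins read that lipid, conjugation enzymes attach ATG8 proteins to the growing membrane, cargo receptors bring the load, and lysosomal hydrolases degrade it. Plasma cells and myeloma cells secrete large amounts of immunoglobulin and are known to rely on autophagy alongside the proteasome.

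The genes described here are 38 named components of this route, chosen by symbol from the initiation kinases to the enzymes of the lysosomal lumen. Every probe set annotated to a member and to no other gene symbol was considered. The brightest by mean signal stood for the gene, which gave 37 genes among 14705 tested. The missing member was GABARAPL1, an ATG8 protein whose 2 single-symbol probe sets reached at most 15.7 and 14.6. Both stayed below the filter on dim probe sets. For GABARAPL1 1 further probe set carries several symbols and was not read. CTSL reached the median of the array on 4 of 42 arrays and ULK2 on 37, so both were read near background.

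RPMI-8226, a human multiple myeloma line, was profiled on Affymetrix U133 Plus 2 expression arrays. The line carried a stably integrated, doxycycline-inducible short hairpin RNA (shRNA) against BMI1, a subunit of Polycomb repressive complex 1, or an inducible control shRNA. In each line 3 arrays were labelled as taken with 100 ng/ml doxycycline and 3 without it at each of 24, 32 and 48 h. At 0 h 3 arrays per line were undosed by title, which makes 14 groups and 42 arrays. Other label fields of the BMI1-shRNA arrays of 0 h conflict with their titles, as given below. Each hairpin was carried by 1 line, so a property of the hairpin and a property of the derived line cannot be told apart where undosed lines are compared. With 1 hairpin against BMI1 in 1 line, loss of BMI1 and another action of that hairpin cannot be told apart in dosed cells. The labels number the replicates but do not say whether they were separate cultures, and the p-values describe array-to-array spread, which may be technical. In RNA from whole cultures, fewer cells with a transcript and less of it per cell cannot be told apart.

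The BMI1 signal was 139.8 to 234 on the 9 dosed arrays of the BMI1-shRNA line, against 758.3 to 1128.8 on its 9 undosed arrays at 24 to 48 h, a fall of 5.4-fold (limma adjusted p = 1.08e-28). The 21 control-line arrays read 1117.2 to 1363.7. The BMI1-shRNA arrays of 0 h are titled as undosed, while another label field calls them dosed and a further one names the control line; their BMI1 signals, 1009.3 to 1069.4, lay within the undosed range of the BMI1-shRNA line and below every control-line array. Of 8 plasma cell markers 7 were retained, led by JCHAIN with a median of 9364.9. Of 4 monocyte or macrophage markers 1 was retained, CSF1R at 10.4 to 42.1, and CD14 and LYZ were not. All 3 T cell markers were retained, with CD8A highest at a median of 34.35. So were 2 of 3 fibroblast markers, with COL1A1 at a median of 117.95, and 1 of 3 erythroid markers, HBB at 32.1. Retention alone thus did not set plasma cell markers apart. EPCAM, an epithelial marker, had a median signal of 3284.7, and 3 of 4 epithelial markers were higher in the BMI1-shRNA line without doxycycline.

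The transcription factors TFEB and TFE3, both members, bind a palindrome that recurs in promoters of lysosomal genes, TCACGTGA, with the core CACGTG inside it. RefSeq promoters (GRCh38.p14, 250 bases before to 50 after the gene start) were available for 32 of the 38 members. TCACGTGA was found in the promoters of 4 of these 32, ATG3, LAMP1, MCOLN1 and CTSA, or 12.5%, against 1.98% of the 11733 tested genes with an entry and 0.98% of all 35116 promoters. CACGTG was found in 6 of 32 members, or 18.8%, against 12.0% of tested genes and 7.26% of promoters. Because the palindrome is known from lysosomal promoters, its larger share among the members is not an independent result. A gene was counted when any of its promoters held the motif (41 promoters for the 32 members), whereas the shares of promoters count each promoter. Both motifs read the same on either strand, and the match describes letters only. The 50 bases before the start are shown for the 3 members whose full palindrome lies there, with TCACGTGA in capitals, because they include MCOLN1, which fell with the BMI1 hairpin, and CTSA and LAMP1, which were not called. They lie on the plus strand at chr13:113297189-113297238 (LAMP1), chr19:7522574-7522623 (MCOLN1) and chr20:45891285-45891334 (CTSA).
LAMP1: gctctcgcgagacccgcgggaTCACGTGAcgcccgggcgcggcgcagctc
MCOLN1: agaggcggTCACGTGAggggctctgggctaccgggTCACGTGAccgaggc
CTSA: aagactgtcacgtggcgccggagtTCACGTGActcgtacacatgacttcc
MCOLN1 held the palindrome at both 42 and 15 bases before the start, counted from its first base. A second copy in LAMP1 began at base -2 and ran across the start.

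Induction of the BMI1 hairpin was compared within its line, as the mean of the doxycycline effects at 24, 32 and 48 h. Of 37 members, 4 fell and 0 rose, at a Benjamini-Hochberg adjusted p under 0.05 in limma over all genes. Among all 14705 genes 4.37% fell and 3.93% rose under the same rule. With quantile normalization 4 members fell and 2 rose, ATG3 by 0.10 and LAMP1 by 0.13, and LAMP1 was also called higher with a stricter filter on dim probe sets and with only these groups in the fit (0.10 in each). The 4 were UVRAG and BECN1 of the lipid kinase complex, ATG12 of the conjugation systems and MCOLN1, the lysosomal calcium channel. UVRAG and MCOLN1 were named, when the set was chosen, as genes that fall with the BMI1 hairpin. Their calls describe that choice and are not independent results, and the count of 4 includes them. The members' median log2 fold change was -0.03, beside 0.02 over all genes, and 11 of 37 members had an unadjusted p under 0.05, as did 2792 of the 14705 genes. Differences here are log2 fold changes on signals to which 5.4 was added, with standard errors (SE) from the fit.

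UVRAG binds BECN1 and takes part in autophagosome maturation and endosomal traffic. Its signal in the BMI1-shRNA line at 24 h was 219.3, 231.2 and 230.5 with doxycycline, against 301.7, 290.2 and 269.0 without. At 32 h it was 200.2, 216.3 and 186.4 with doxycycline, against 268.5, 302.8 and 296.7 without. At 48 h it was 188.5, 191.7 and 203.8 with doxycycline, against 339.5, 320.4 and 329.4 without. Every dosed array lay below every undosed array of the line, and UVRAG was the only member of 37 for which this held, where 1.47% of all genes had no overlap in either direction. UVRAG fell by 0.53 on the log2 scale (SE 0.04, limma adjusted p = 1.28e-12), which is 1.44-fold. In the control-shRNA line its signal was 248.5 to 297.1 with doxycycline, against 267.2 to 317.7 without at the same times, and the ranges overlapped. UVRAG is read by a single probe set, so no second one could be set beside it.

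The UVRAG difference was larger at later times. Its log2 fold change was -0.33 at 24 h, -0.51 at 32 h and -0.74 at 48 h, each with an SE of 0.07, and limma called all 3 (adjusted p = 0.00721, 4.6e-06 and 6.64e-10). The 48 h effect minus the 24 h effect was -0.41 (SE 0.10, limma adjusted p = 0.0465), the single call among 37 members, where 0.408% of all genes were lower and 0.0816% higher. That call was lost in 6 of 11 alternative settings and without 10 of the 12 arrays in turn, with adjusted p up to 0.161. It was kept only when dosed replicate 3 at 48 h or undosed replicate 1 at 24 h was the array left out. Without doxycycline UVRAG in that line had its highest signals at 48 h, and these enter the difference.

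BECN1, the scaffold of the lipid kinase complex, changed less. It read 688.9, 611.5 and 647.7 at 24 h, 616.6, 633.8 and 614.7 at 32 h, and 557.5, 625.4 and 612.3 at 48 h with doxycycline. Without doxycycline it read 770.5, 732.8 and 687.8 at 24 h, 685.7, 639.3 and 711.7 at 32 h, and 685.0, 630.2 and 674.7 at 48 h. The groups overlapped at 24 h, where the highest dosed array passed the lowest undosed one, while at 32 and 48 h every dosed array lay below every undosed one of that time. BECN1 fell by 0.15 (SE 0.04, limma adjusted p = 0.0098), and at no single time was it called. A second retained probe set of BECN1 gave -0.09 (SE 0.04, limma adjusted p = 0.206).

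ATG12 is the ubiquitin-like protein that is joined to ATG5 in the complex that lipidates ATG8 proteins. With doxycycline it read 502.8, 559.1 and 633.5 at 24 h, 516.8, 442.2 and 550.9 at 32 h, and 457.1, 532.9 and 454.5 at 48 h. Without doxycycline it read 671.9, 602.4 and 535.0 at 24 h, 603.0, 600.1 and 578.1 at 32 h, and 554.6, 566.9 and 637.2 at 48 h. The groups overlapped at 24 h, while at 32 and 48 h every dosed array lay below every undosed one. ATG12 fell by 0.21 (SE 0.05, limma adjusted p = 0.00331), and among single times only 48 h was called (-0.28, SE 0.08, adjusted p = 0.0352). The 2 other retained probe sets gave -0.04 and -0.13 and were not called. With the mean of its probe sets ATG12 had -0.12 and lost its call (adjusted p = 0.0764).

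MCOLN1 encodes mucolipin 1, the channel that releases calcium from lysosomes. With doxycycline it read 205.5, 193.7 and 185.9 at 24 h, 154.7, 148.0 and 167.3 at 32 h, and 112.2, 146.3 and 164.6 at 48 h. Without doxycycline it read 217.8, 260.2 and 221.3 at 24 h, 152.0, 265.3 and 178.7 at 32 h, and 186.6, 145.3 and 184.3 at 48 h. The groups were separate at 24 h and overlapped at 32 and 48 h, where single undosed arrays were as low as the dosed ones and 1 undosed array at 32 h was far above the other 2. MCOLN1 fell by 0.28 (SE 0.09, limma adjusted p = 0.0403), or 1.21-fold. This call was lost when any 1 of 9 of the 18 arrays was left out, with adjusted p up to 0.135. With doxycycline these were replicates 2 and 3 at 24 h, 1 and 2 at 32 h and 1 at 48 h, and without it replicate 2 at 24 h, the high replicate 2 at 32 h (-0.20), and 1 and 3 at 48 h. It was also lost in 3 alternative settings, with adjusted p of 0.0537, 0.0628 and 0.0814. The log2 fold change was -0.25 at 24 h, -0.30 at 32 h and -0.29 at 48 h, with no call at any time.

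**Figure D1:**
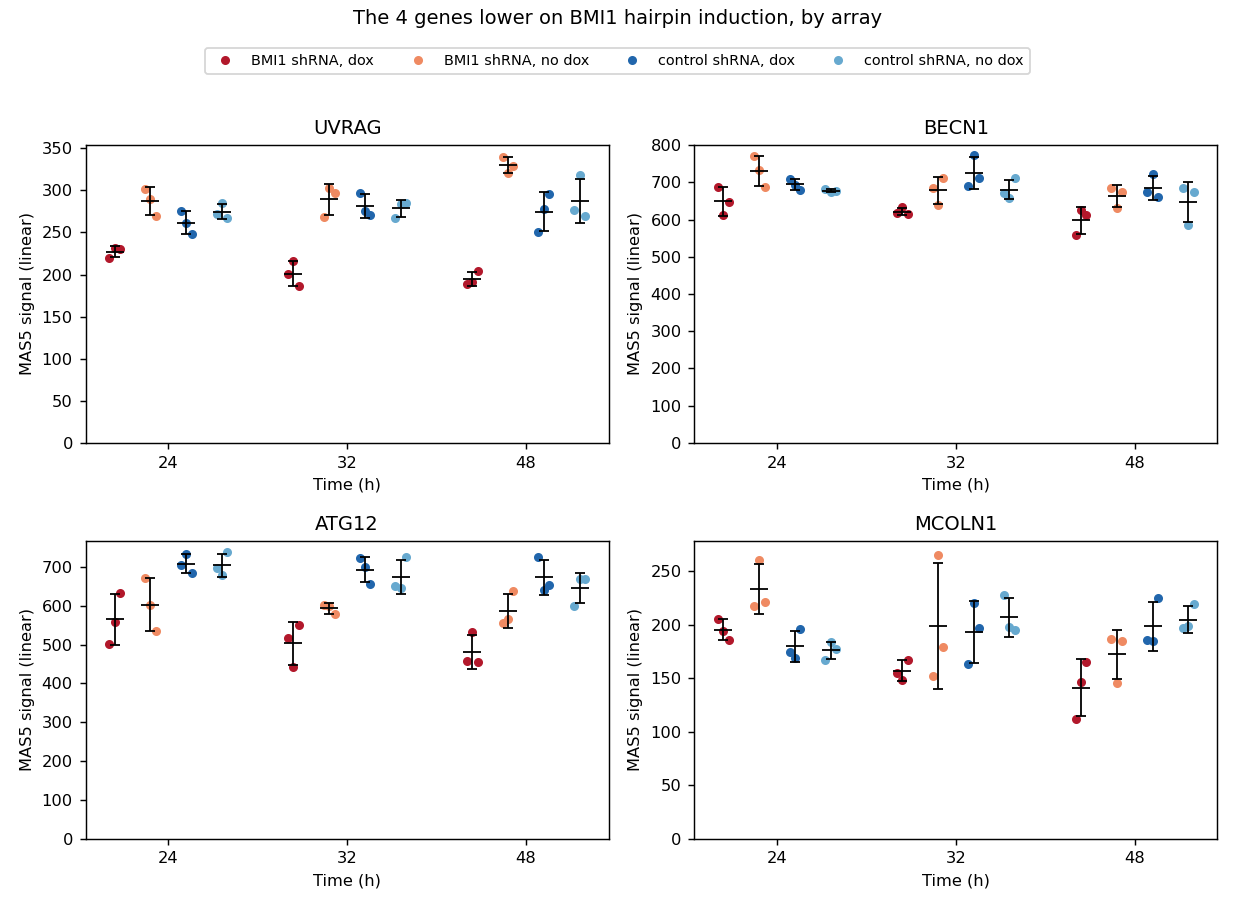
MAS5 signal (linear) of UVRAG, BECN1, ATG12 and MCOLN1 against time in hours, with points for arrays and bars for the mean and SD of 3. Dosed UVRAG arrays of the BMI1-shRNA line sit between 186.4 and 231.2, below its undosed arrays of the same 3 times at 268.5 to 339.5, whereas over the 3 times together the dosed and undosed ranges of the other 3 genes overlap.

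The difference between the lines was tested as the response to doxycycline in BMI1-shRNA cells minus the response in control-shRNA cells. Of 37 members 3 were lower and 0 higher, where 2.58% of all genes were lower and 1.18% higher. With quantile normalization 3 were lower and 1 higher, ATG3 at 0.14. UVRAG had -0.49 (SE 0.06, limma adjusted p = 1.24e-07), BECN1 -0.22 (SE 0.05, adjusted p = 0.0123) and ATG12 -0.24 (SE 0.07, adjusted p = 0.0321). UVRAG was named for its fall in the BMI1-shRNA line, whose arrays enter this difference. The ATG12 call was lost when any 1 of 13 of the 36 arrays was left out, with adjusted p up to 0.0668. In the BMI1-shRNA line these were, with doxycycline, replicate 1 at 24 h, 2 at 32 h, and 1 and 3 at 48 h, and, without it, replicate 1 at 24 h and 3 at 48 h. In the control-shRNA line they were, with doxycycline, replicate 2 at 24 h, 1 at 32 h and 1 at 48 h, and, without it, replicate 2 at 24 h, 1 and 2 at 32 h, and 1 at 48 h. MCOLN1 had -0.24 (SE 0.12) and was not called (adjusted p = 0.414).

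In the control-shRNA line doxycycline changed 0 of 37 members by limma, where 0.0612% of all genes rose and 0.068% fell; 4 members and 884 of the 14705 genes had an unadjusted p under 0.05. Their log2 fold changes ran from -0.23 (ATG16L1) to 0.17 (LAMP2). MCOLN1 had -0.04 (SE 0.09), UVRAG -0.04 (SE 0.04), ATG12 0.04 (SE 0.05) and BECN1 0.07 (SE 0.04).

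**Figure D2:**
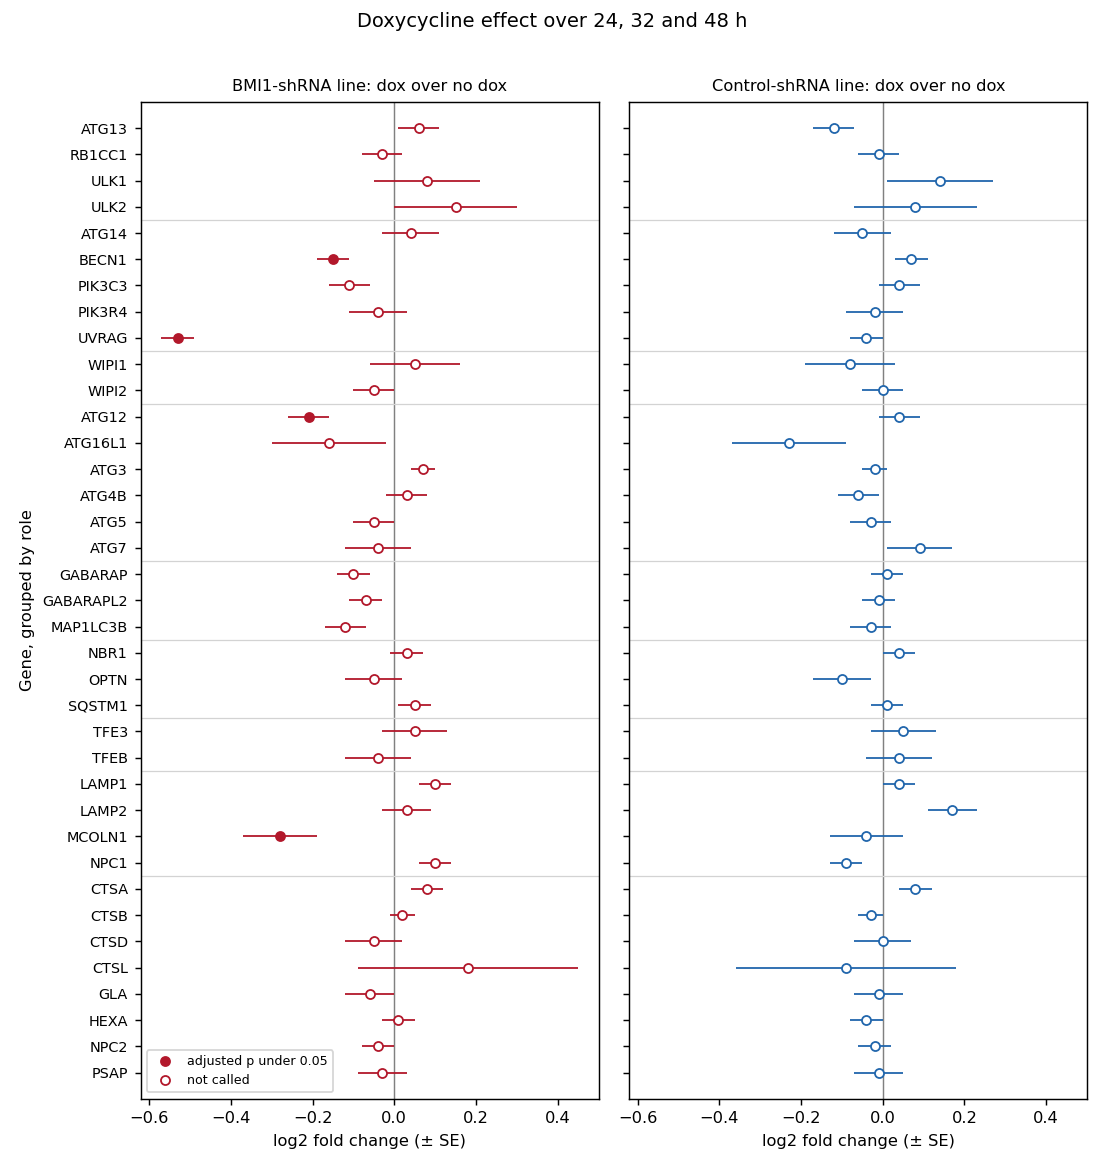
Log2 fold change with SE of the 37 tested genes, grouped by role from initiation (top) to the lysosomal lumen (bottom), for doxycycline over no doxycycline in the BMI1-shRNA line (left) and the control-shRNA line (right). Filled circles mark an adjusted p under 0.05: UVRAG, BECN1, ATG12 and MCOLN1 on the left and none on the right.

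At single times the members called lower with the BMI1 hairpin were few. At 24 h 1 of 37 fell, UVRAG, where 1.08% of all genes did. At 32 h 1 of 37 fell, again UVRAG, where 1.67% of all genes did. At 48 h 2 of 37 fell, UVRAG and ATG12, where 3.88% of all genes did.

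The other roles held no called member on induction. The 4 measured initiation kinase genes, ULK1, ULK2, ATG13 and RB1CC1, had log2 fold changes of -0.03 to 0.15. Both WIPI genes lay within -0.05 to 0.05, and so did the cargo receptors SQSTM1, NBR1 and OPTN. The 3 measured ATG8 genes lay between -0.12 and -0.07 by their brightest probe sets. TFEB and TFE3 had -0.04 and 0.05. The 8 lumenal genes, among them the cathepsins and PSAP, the precursor of saposins, lay between -0.06 and 0.18, with the upper end set by the dim CTSL (SE 0.27).

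MAP1LC3B, the ATG8 protein most used as a marker of autophagosomes, differed between its 2 probe sets. The brightest read 359.5 to 474.9 in dosed arrays, against 427.1 to 481.0 in undosed arrays of the BMI1-shRNA line, a log2 fold change of -0.12 (SE 0.05, limma adjusted p = 0.153). The other one, tested in a fit of all 28475 retained single-symbol probe sets, read 377.5, 378.9 and 410.6 at 24 h, 346, 316.4 and 358.1 at 32 h, and 251.2, 275.2 and 280.1 at 48 h with doxycycline. Without doxycycline it read 440.4, 445.8 and 460.1 at 24 h, 478.3, 421.8 and 450 at 32 h, and 424.2, 477.4 and 536 at 48 h. Every dosed array lay below every undosed one. That probe set fell by 0.47 (SE 0.04, limma adjusted p = 1.67e-10). At 24 h its log2 fold change was -0.20 and not called (adjusted p = 0.274), and it fell by 0.40 at 32 h (adjusted p = 0.00103) and by 0.82 at 48 h (adjusted p = 4.99e-10). With the mean of both probe sets MAP1LC3B fell by 0.29 (SE 0.03, adjusted p = 1.88e-08). In the control-shRNA line the dimmer probe set had -0.04 (SE 0.04), and its difference between the lines was -0.43 (SE 0.06, limma adjusted p = 6.5e-06). With the mean of both probe sets that difference was -0.26 (SE 0.05, limma adjusted p = 0.000331). By the brightest alone it was -0.09 (SE 0.07) and not called.

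**Figure D3:**
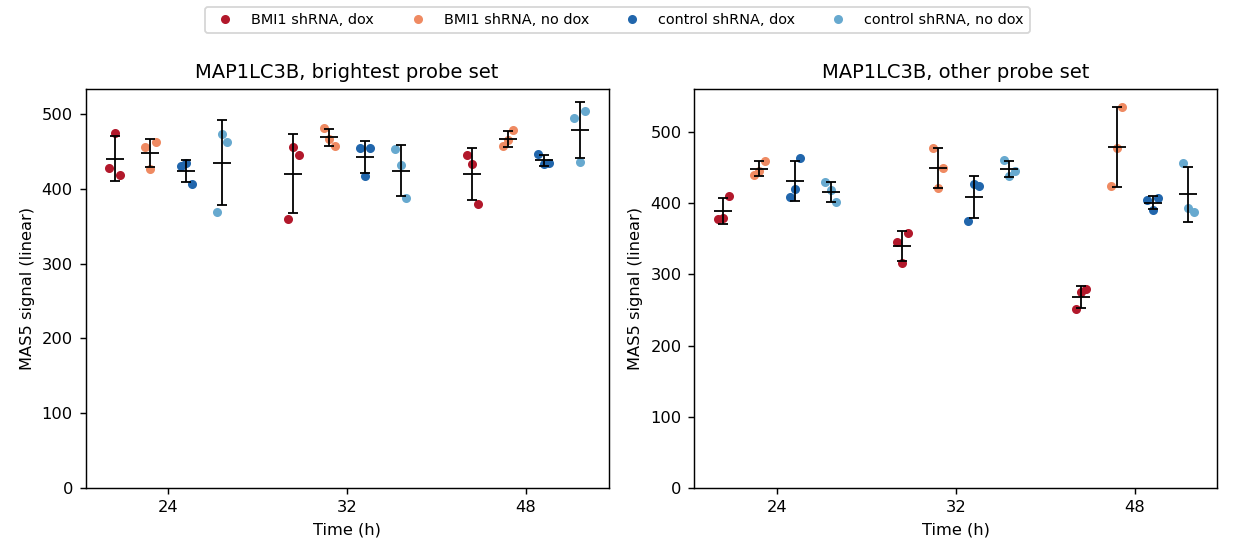
MAS5 signal (linear) of both MAP1LC3B probe sets against time in hours, with arrays as points and bars for the mean and SD of 3. The brightest probe set overlaps between dosed and undosed BMI1-shRNA arrays, and the other reads 251.2 to 280.1 with doxycycline at 48 h, against 424.2 to 536 without.

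Of 37 members 25 had several retained probe sets, with 54 beyond the brightest. In the doxycycline effect of the BMI1-shRNA line 4 of the 54 were called, in MAP1LC3B, ATG5, PIK3C3 and LAMP1, where 6.87% of all probe sets were called. The ATG5 and PIK3C3 ones were dim, at 19.4 to 40.4 and 28.6 to 37.6 with doxycycline, against 32.9 to 48 and 31.6 to 61 without. The LAMP1 one rose by 0.14 (SE 0.04, limma adjusted p = 0.0189). In the difference between the lines 1 of the 54 was called, that of MAP1LC3B, where 3.08% of all probe sets were.

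Genes of the same route outside the 38 were read from 6 lists. In the vacuolar ATPase, the pump that acidifies the lysosome, 0 of 17 genes rose and 3 fell with the BMI1 hairpin, where 3.93% of all genes rose and 4.37% fell. ATP6V0E1, a subunit of its membrane sector, averaged 1210 ± 64.2 with doxycycline and 1770 ± 107 without (SD, n = 9 each). It fell by 0.55 (SE 0.04, limma adjusted p = 2.98e-12), and ATP6V1C1 and ATP6V1A each fell by 0.20. Of 27 further autophagy genes 2 rose and 2 fell, to be read against the same shares. TAX1BP1, a cargo receptor, fell by 0.28 and TMEM41B, an endoplasmic reticulum scramblase, by 0.16, while WDR45B, a WIPI family protein, rose by 0.27 and NRBF2, which binds the lipid kinase complex, by 0.22.

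Against the same 3.93% of all genes that rose and 4.37% that fell, 0 of 24 genes of endosome to lysosome fusion rose and 2 fell, VPS33A by 0.25 and VAMP7 by 0.23. Of 31 regulators of mTORC1 and AMPK, which set autophagy by nutrient state, 0 rose and 4 fell: SESN3 by 0.48, FNIP2 by 0.25, DDIT4 by 0.20 and FOXO3 by 0.18. Of 24 further lysosomal membrane genes 2 rose and 3 fell, with LAMP3 at -0.31 and LAPTM4A at 0.17. None of 30 further lysosomal enzymes was called by limma. List medians ran from -0.03 to 0.05, beside 0.02 over all genes. In the difference between the lines, 1.18% of all genes were higher and 2.58% lower. There 0 of 24 fusion genes were higher and 2 lower, VPS33A and VAMP7. Among the 31 regulators 0 were higher and 2 lower, SESN3 and FOXO3. Of 17 vacuolar ATPase genes 0 were higher and 2 lower, ATP6V0E1 at -0.56 (SE 0.06, limma adjusted p = 2.56e-08) and ATP6V1C1 at -0.20. Of 27 further autophagy genes 1 was higher, WDR45B at 0.33, and 1 lower, TAX1BP1 at -0.31. In the lists of further lysosomal membrane genes and enzymes no gene was called. With induction of the BMI1 hairpin 4 of 7 retained plasma cell markers were higher. In the difference between the lines 1 of these 7 was higher and 0 lower. The summed signals of the plasma cell markers were 14660.5 to 18916.7 in dosed arrays, against 12810.9 to 20235.7 in undosed arrays, those of 0 h included. Of the epithelial markers 1 of 4 was lower, and 0 were called in the difference between the lines. Their sums were 5279.5 to 6285.2 in dosed arrays, against 5515.8 to 6584.5 in undosed arrays, again with those of 0 h. The part of either in these results was not tested.

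Without doxycycline the 2 lines differed in 24 of 37 members over 24, 32 and 48 h. In the BMI1-shRNA line 14 were higher and 10 lower, where 21.9% of all genes were higher and 22.1% lower. The lower ones include CTSL, which passed the filter only on arrays of the control-shRNA line. The arrays did not overlap for 8 members, 7 higher and 1 lower, where 16.1% of all genes did not overlap. The ratio of 3′ to 5′ GAPDH signal, a measure of RNA integrity, was 0.935 ± 0.0251 in the BMI1-shRNA line and 1.03 ± 0.0401 in the control-shRNA line (SD, n = 21 each). The summed epithelial markers were 5515.8 to 6584.5 in undosed BMI1-shRNA arrays, against 4010.6 to 5584.9 in undosed control-shRNA arrays, both with the 0 h arrays. The part of either in the line difference was not tested. BMI1 itself was lower in the BMI1-shRNA line without doxycycline (-0.32, SE 0.06, limma adjusted p = 1.36e-05).

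WIPI1, which binds phosphatidylinositol 3-phosphate on forming autophagosomes, was the member with the greatest fold between the lines. It read 58.5 to 80.1 (median 77.8) in the BMI1-shRNA line, against 121.7 to 254.7 (median 147.8) in the control-shRNA line. The arrays were separate, and WIPI1 was lower by a log2 fold change of -1.08 (SE 0.11, limma adjusted p = 1.22e-10), or 2.11-fold. Its second probe set gave -1.03 (SE 0.08). WIPI2, its homologue, was higher by 0.17 by its brightest probe set alone (SE 0.05, limma adjusted p = 0.0101). The next, at a mean signal of 842 against 881, gave 0.01, and all its other retained probe sets lay between -0.07 and 0.14, uncalled.

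Catalytic and regulatory subunits of the lipid kinase were higher in the BMI1-shRNA line. PIK3C3, the catalytic subunit, read 425.0 to 519.9 (median 467.0) in the BMI1-shRNA line, against 283.7 to 382.1 (median 317.7) in the control-shRNA line. PIK3R4, its regulatory subunit, read 525.0 to 578.5 (median 557.1) in the BMI1-shRNA line, against 373.0 to 432.5 (median 408.2) in the control-shRNA line. Neither overlapped, with log2 fold changes of 0.55 (SE 0.05, limma adjusted p = 9.77e-12) and 0.47 (SE 0.07, adjusted p = 1.6e-07). RB1CC1, the scaffold of the initiation complex, was higher by 0.43 (SE 0.05, adjusted p = 1.15e-08), also without overlap.

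Lysosomal genes differed in both directions. CTSA, a carboxypeptidase that protects other lysosomal enzymes, read 924.0 to 1026.6 (median 951.2) in the BMI1-shRNA line, against 582.8 to 732.8 (median 632.8) in the control-shRNA line. CTSB, a cysteine protease, read 2225.3 to 2604.0 (median 2410.9) in the BMI1-shRNA line, against 1446.0 to 1757.9 (median 1623.7) in the control-shRNA line. They were higher by 0.59 (SE 0.04, limma adjusted p = 2.12e-16) and 0.58 (SE 0.03, adjusted p = 1.6e-18), and the 4 other CTSB probe sets gave 0.38 to 0.92. NPC1, the membrane cholesterol exporter, was higher by 0.50 (SE 0.04, adjusted p = 3.51e-12), again without overlap.

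On the lower side, HEXA, a hexosaminidase subunit, had -0.27 (SE 0.04, limma adjusted p = 2.27e-06). TFEB read 44.8 to 64.4 (median 57.0) in the BMI1-shRNA line, against 53.5 to 80.6 (median 72.7) in the control-shRNA line, a log2 fold change of -0.35 (SE 0.08, adjusted p = 0.000398). With the mean of its 2 probe sets TFEB had -0.18 and was not called (adjusted p = 0.377). CTSL (-0.73, SE 0.27) and ULK2 (-0.36, SE 0.15) were called at signals of at most 25.6 and 42.5 on these arrays. CTSL reached the array median on 4 of 42 arrays, all of the control-shRNA line. It was thus tested only because of the line where it is higher, and its call is no support for a line difference. The CTSL value depends on the constant added before the logarithm, with -1.11 for 1 and -0.38 for 18.8. Leaving out single arrays ended the CTSL call for 6 of 18 (adjusted p up to 0.0852) and the ULK2 call for 11 of 18 (adjusted p up to 0.142).

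Of the 54 other probe sets 18 were called between the lines, where 39.1% of all probe sets were. In 11 of these the gene's brightest was called as well, with the same sign in 10. The exception was ATG3, an E2-like enzyme of ATG8 lipidation, whose brightest probe set gave 0.17 (SE 0.03) and whose dimmer one gave -0.52 (SE 0.08). LAMP2, a lysosomal membrane glycoprotein, was lower by all 4 of its probe sets, from -0.14 to -0.33.

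**Figure D4:**
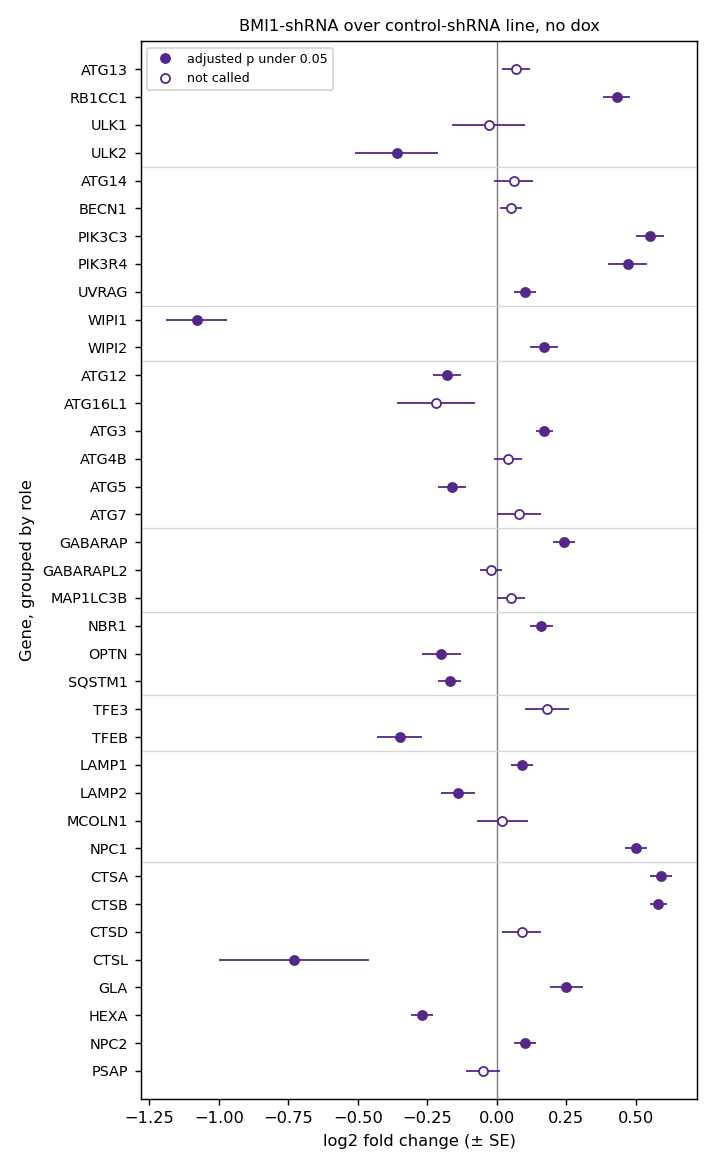
Log2 fold change with SE of the 37 tested genes for the undosed BMI1-shRNA line over the undosed control-shRNA line, grouped by role. Filled circles mark an adjusted p under 0.05, 14 to the right of 0 and 10 to the left, with WIPI1 at -1.08 the farthest. Those to the left include CTSL, which passed the filter only on control-shRNA arrays.

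Time without doxycycline was examined as 48 h over 0 h. In the BMI1-shRNA line the 0 h arrays are those whose labels conflict on dose and line. They were grouped by title, and every result for time in that line has this limit. In the BMI1-shRNA line 5 of 37 members rose and 1 fell, where 2.26% of all genes rose and 2.21% fell. In the control-shRNA line 4 of 37 rose and 2 fell, where 2.48% of all genes rose and 2.56% fell. OPTN, a cargo receptor, rose and SQSTM1, the cargo receptor p62, fell in both. These counts rest on 3 arrays a side. In the BMI1-shRNA line the count was 0, 3, 6, 3, 3 and 2 with the arrays of 48 h replicates 1, 2 and 3 and 0 h replicates 1, 2 and 3 left out in turn. In the control-shRNA line it was 3 without 48 h replicate 3 or 0 h replicate 2 and 4 or 5 otherwise.

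OPTN in the BMI1-shRNA line read 168.4, 169.3 and 146.6 at 48 h, against 104.7, 119.0 and 118.2 at 0 h. OPTN in the control-shRNA line read 176.2, 164.3 and 209.6 at 48 h, against 147.9, 110.9 and 136.0 at 0 h. The arrays of the 2 times were separate in both lines, with log2 fold changes of 0.48 (SE 0.12, limma adjusted p = 0.0147) and 0.46 (SE 0.12, adjusted p = 0.015). SQSTM1 in the BMI1-shRNA line read 1173.6, 1258.2 and 1362.7 at 48 h, against 1350.4, 1750.9 and 1683.2 at 0 h. SQSTM1 in the control-shRNA line read 1409.2, 1477.0 and 1388.9 at 48 h, against 1767.8, 1610.5 and 1676.1 at 0 h. SQSTM1 overlapped between times in the BMI1-shRNA line alone, and had -0.33 (SE 0.07, adjusted p = 0.00673) there and -0.24 (SE 0.07, adjusted p = 0.0485) in the control-shRNA line. The call in the control-shRNA line was lost without any 1 of its 6 arrays, with adjusted p of 0.0611 to 0.19. In the BMI1-shRNA line SQSTM1 lost its call without 48 h replicate 1 or 0 h replicate 2 or 3. OPTN lost its call in that line without 48 h replicate 1 or 2 or 0 h replicate 1, and in the control-shRNA line without 48 h replicate 3 or 0 h replicate 2. With the mean of its probe sets OPTN in the control-shRNA line had 0.25 (adjusted p = 0.206), while SQSTM1 had -0.22 in the BMI1-shRNA line and -0.19 in the control-shRNA line, all uncalled. With only the groups of each comparison in the fit both genes lost their calls in both lines, with adjusted p of 0.052 to 0.119.

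Further members were called in 1 line. In the BMI1-shRNA line UVRAG read 339.5, 320.4 and 329.4 at 48 h, against 268.0, 274.8 and 253.3 at 0 h, a rise of 0.31 (SE 0.07, limma adjusted p = 0.00867). It lost that call without 48 h replicate 1 or 0 h replicate 3, with adjusted p up to 0.0582. NBR1, a cargo receptor, rose there by 0.27, NPC2, which carries cholesterol in the lysosome, by 0.25, and GABARAPL2, an ATG8 protein, by 0.22. All 3 lost their calls without 48 h replicate 1, and each without at least 2 further arrays. WIPI1 in the control-shRNA line read 254.7, 183.0 and 147.7 at 48 h, against 89.3, 105.0 and 102.4 at 0 h, a rise of 0.91 (SE 0.19, limma adjusted p = 0.00217). CTSB there read 1530.5, 1493.8 and 1446.0 at 48 h, against 1737.1, 1835.7 and 1930.5 at 0 h, and fell by 0.30 (SE 0.05, adjusted p = 0.000348). RB1CC1 rose there by 0.35 and MAP1LC3B by 0.33. The RB1CC1 call was lost without 48 h replicate 1 or 2 or 0 h replicate 1, and the MAP1LC3B call without 48 h replicate 3 or 0 h replicate 2. With probe sets averaged per gene NBR1 in the BMI1-shRNA line had 0.18 (adjusted p = 0.509), and in the control-shRNA line RB1CC1 had 0.03 (adjusted p = 0.936) and MAP1LC3B 0.18 (adjusted p = 0.0572), with no call.

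The difference of these time effects between the lines, a comparison added after the data were seen, gave 0 called members by limma, where 0.0612% of all genes were higher and 0.0816% lower. An unadjusted p under 0.05 was found for 6 members and 1117 of the 14705 genes. WIPI1 had -0.93 (SE 0.27, adjusted p = 0.271), with a time effect of -0.02 (SE 0.19) in the BMI1-shRNA line and 0.91 in the control-shRNA line.

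**Figure D5:**
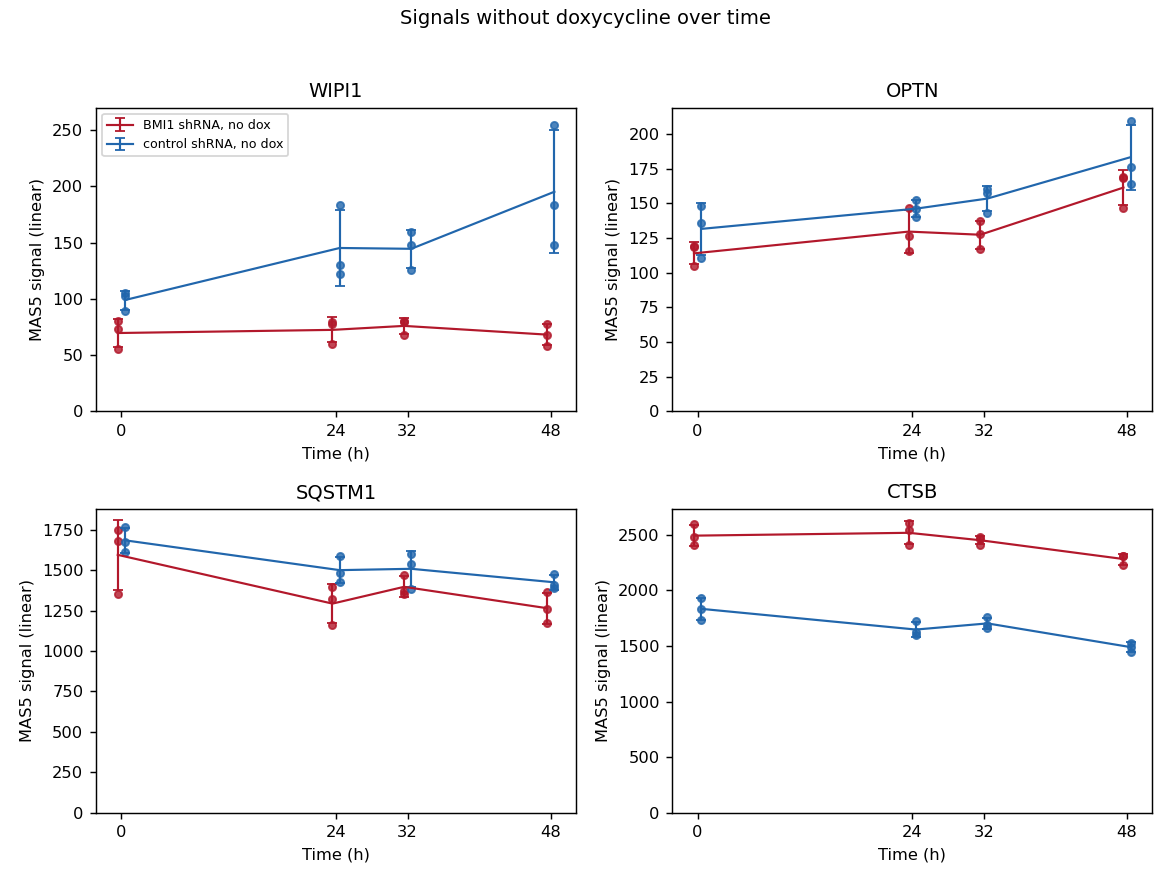
MAS5 signal (linear) of WIPI1, OPTN, SQSTM1 and CTSB without doxycycline against time in hours, with arrays as points and lines through the means with SD bars of 3. WIPI1 reaches 147.7 to 254.7 at 48 h in the control-shRNA line and stays at 55.5 to 80.1 at every time in the BMI1-shRNA line.

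Of 31 regulators of mTORC1 and AMPK in the outside lists, 2 rose and 0 fell with time in the BMI1-shRNA line, and 4 rose and 1 fell in the control-shRNA line. The shares over all genes were 2.26% higher and 2.21% lower in the BMI1-shRNA line, and 2.48% higher and 2.56% lower in the control-shRNA line. DDIT4, an mTORC1 inhibitor induced by stress, rose by 0.46 in the BMI1-shRNA line and 0.96 in the control-shRNA line. DEPTOR, a subunit of mTOR complexes that is abundant in many myelomas, rose by 0.26 in the BMI1-shRNA line and 0.37 in the control-shRNA line. Among 27 further autophagy genes 0 were called by limma in either line.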

How the data were processed

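The authors deposited linear MAS5 signal intensity values per probe set; the submitters' processing notes name MAS5, and its version is not given in the sources used here. Array controls (62 of 54675 probe sets) were left out, and a probe set was retained where its signal reached the median of the array on at least 3 of 42 arrays. Values were used as log2(value + 5.4), 5.4 being the 25th percentile of all values. The gene names came from the platform annotation: 41091 probe sets had a single symbol, 1801 several and 11721 none, and those with several were not used for members. The log2 values of all 42 arrays entered a limma 3.58.1 fit (R 4.3.3) with a mean for each of 14 groups (eBayes with an intensity trend, two-sided, Benjamini-Hochberg over 14705 genes, 28 residual degrees of freedom). The model was tested on simulated data. Arrays have no read depth, and 3 per group limits the precision. The members and lists were chosen with earlier results of these data known. UVRAG and MCOLN1 were named in that choice as genes that fall with the BMI1 hairpin. Values by array are given for UVRAG, MCOLN1 and members called in the doxycycline effect or its difference between lines; up to 10 called members by size of the log2 fold change between the lines, up to 6 per time comparison and up to 4 per outside list are named, and other members that are named, and the second probe sets, were chosen after their values were seen. Replicate numbers did not pair arrays: the mean correlation of deviations was 0.001 for the same number and -0.001 for different numbers in a line. Alternatives were other pseudocounts, quantile normalization, other filters, other ways to take probe sets, no intensity trend, fewer arrays in the fit, a replicate block and leaving out each array.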

Additional observations from a re-analysis of the deposited data

Results flagged for a closer look

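The doxycycline effect differed between the BMI1-shRNA line and the control-shRNA line for 3 members by limma's test of the difference itself. UVRAG had -0.49 (SE 0.06, adjusted p = 1.24e-07), BECN1 -0.22 (SE 0.05, adjusted p = 0.0123) and ATG12 -0.24 (SE 0.07, adjusted p = 0.0321). The ATG12 call was kept in 10 of 11 alternative settings and for 23 of 36 arrays left out in turn. UVRAG also differed between times in the main fit, with an effect at 48 h minus that at 24 h of -0.41 (SE 0.10, adjusted p = 0.0465). This UVRAG time call was kept in only 5 of 11 settings and for 2 of 12 arrays left out in turn. The MAP1LC3B probe set that is not the gene's brightest, and so was outside the gene-level comparisons, differed between the lines by -0.43 (SE 0.06, adjusted p = 6.5e-06 in the fit of all probe sets).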

How the results depend on the processing

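UVRAG kept its call in all 11 alternatives and without any of 18 arrays for the doxycycline effect of the BMI1-shRNA line (-0.55 to -0.51 without single arrays), and in all 11 and without any of 36 arrays for the difference between the lines (-0.51 to -0.47). MCOLN1 had -0.28 and lost its call with no filter, with no intensity trend and with only the groups of the comparison; without single arrays it had -0.33 to -0.20, and its difference between the lines -0.29 to -0.16, uncalled throughout. Without single arrays the members called numbered 3 to 5 for the doxycycline effect of the BMI1-shRNA line, 0 to 0 for the control-shRNA line, 2 to 4 for their difference, 19 to 23 between undosed lines, 0 to 6 for 48 h over 0 h in the BMI1-shRNA line, 3 to 5 for the same in the control-shRNA line, 0 to 1 for the 48 h minus the 24 h effect, and 0 to 0 for the difference of the time effects. With quantile normalization the calls split 2 higher to 4 lower for the doxycycline effect of the BMI1-shRNA line and 1 to 3 for the difference between the lines, against 0 to 4 and 0 to 3 in the fit reported. With only the groups of the comparison, 48 h over 0 h had 1 call in the BMI1-shRNA line and 2 in the control-shRNA line. The 48 h minus 24 h effect had 0 calls under quantile normalization, no filter, all probe sets as features, only the groups, and without the 0 h arrays, and 2 with the mean of probe sets, where the difference of the time effects had 1. With the replicate block UVRAG stayed at -0.53, the 48 h minus 24 h effect had 0 calls (UVRAG adjusted p = 0.0706) and ULK2 lost its call between the lines (limma adjusted p = 0.0537); the block changed no other call named here. A further tally leaves out UVRAG and MCOLN1 for the doxycycline effect of the BMI1-shRNA line and for the difference between the lines, given above. Over the 27 other named gene results and their alternatives, 245 of 282 values kept their side of the threshold, 37 lost it and 0 reversed. Over arrays left out, 300 of 372 kept it, 72 lost it and 0 reversed. The cause of these lost calls was not tested.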

Other observations

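The spread within groups of 3 arrays was smaller for these genes than for all genes tested. The median within-group SD of log2 values was 0.12 for the 37 members and 0.18 for all genes. Brightness was not matched between them. The largest member spreads were those of the dim CTSL (0.58), ULK2 (0.30) and ATG16L1 (0.28). The members' median absolute log2 fold change was 0.05 for the doxycycline effect of the BMI1-shRNA line, beside 0.09 over all genes, and 0.17 between undosed lines, beside 0.20 over all genes.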
